A study of Nicotiana benthamiana with 28 samples.

Results

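The response of Nicotiana benthamiana seedlings to the protein XEG1 was examined in both lines that carry the receptor construct RXEG1synΔCT. The comparison comprised 8 of the 28 RNA sequencing libraries of the series, chosen by their titles, which end in ΔCT-1 or ΔCT-2 and name no changed residues. Of 59814 genes in the files, 36922 had a mean of at least 1 TPM over these 8 libraries and were tested, and 11617 were listed at 0 in all 8. TPM expresses a gene's abundance per unit of length, with equal totals in all libraries.

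The lines are called ΔCT line 1 and ΔCT line 2 after the suffix of their titles. Each group held 2 libraries: XEG1-treated and mock-treated seedlings of line 1, and XEG1-treated and mock-treated seedlings of line 2. All 8 libraries came from whole seedlings aged 12 days, and treatment lasted 3 h. Both lines are in the background of an rxeg1 knockout, which lacks the endogenous receptor, and express the construct from the RXEG1 promoter. The mock control, named EV in the titles, is of the same genotype in each line. Libraries of XEG1-treated and mock-treated seedlings of the rxeg1 knockout and of wild type, 2 of each, were used beside them. The labels do not explain the terms syn and ΔCT, do not say whether a line is a single clone, and give no dose. The XEG1 and mock libraries of 3 further genotypes were used for single comparisons, again 2 of each: the lines Δ90-95/Q786AK791A and Δ90-95/Δ786-792, whose constructs also have the RXEG1 promoter, syn and ΔCT in their names and are in the rxeg1 knockout, and the sobir1/sobir1-like knockout.

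Plants detect microbes outside the cell with receptor kinases and receptor-like proteins. RXEG1 is a receptor-like protein of N. benthamiana with leucine-rich repeats in its extracellular part. It recognises XEG1, a glycoside hydrolase that the soybean pathogen Phytophthora sojae secretes into the plant apoplast. Receptor-like proteins have no kinase domain of their own and signal together with receptor kinases, among them SOBIR1 and BAK1. Recognition is followed by an oxidative burst and by transcription of defence genes. The gene identifiers, which begin with Niben101, are not paired with names in the files. The transcripts of RXEG1, the construct and known defence genes could therefore not be looked up, and no functional list was examined. Whether the tissue markers of seedlings were present was not checked for the same reason.

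Sequencing depth is unknown, because TPM keeps no depth. Libraries of these lines held 35932 to 36926 genes at 1 TPM or more. The mock replicate 2 of line 1 stood apart from the other 7 libraries. It had the fewest genes at 1 TPM, its 20 most abundant genes took 7.43% of all TPM, against 4.92% to 6.49% in the other 7, and its mean correlation with them was the lowest, at 0.971 against 0.976 to 0.983. On the first principal component, which held 32.3% of the variance, it lay at 59.6, while the other 7 lay between -25.7 and 7.86. The second component, with 22.5%, ranged from -27.4 to -25.0 in XEG1 libraries of line 2, against 16.6 to 28.2 in its mock libraries. In line 1 the treatments overlapped on it, with XEG1 libraries at -14.7 and 4.89 and mock libraries at -9.10 and 26.5. Replicates deviated from the mean of their group with an SD across genes of 0.131 log2 units after XEG1 and 0.201 in mock in line 1, and 0.152 after XEG1 and 0.143 in mock in line 2. The labels do not say that replicates came from separate plants, and a p-value here reflects no more than the spread of the libraries at hand.

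**Figure D1:**
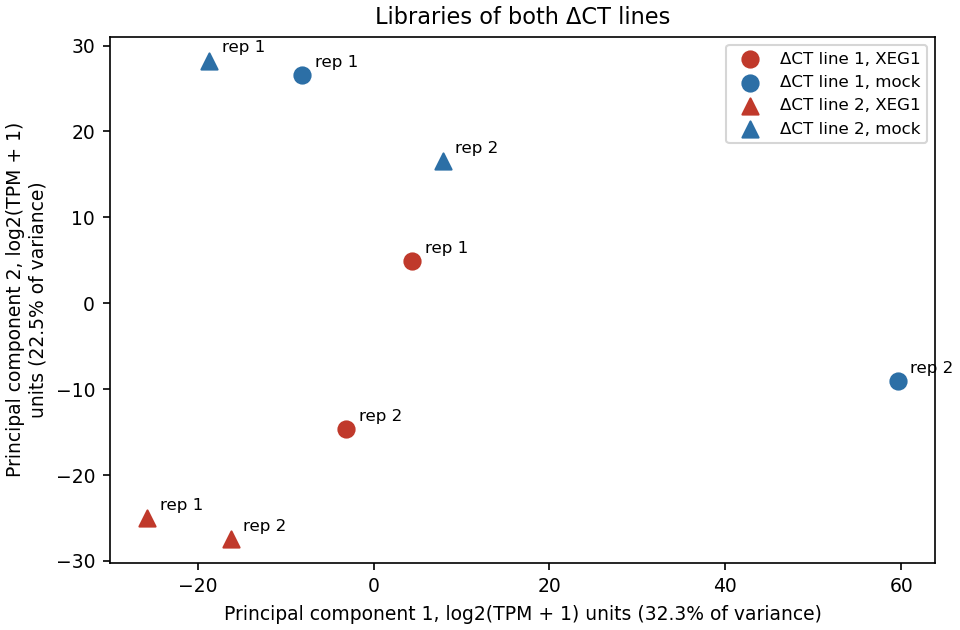
Each point is a library of the ΔCT lines, placed by its first and second principal components of log2(TPM + 1) over 36922 genes, with line by shape and treatment by colour. Mock replicate 2 of line 1 lies at 59.6 on the first component, apart from the other 7, and the treatments of line 2 separate on the second.

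The main question was which genes changed after XEG1 in both lines together. Seedlings carrying RXEG1synΔCT raised a small set of transcripts after XEG1: 28 genes rose, by log2 changes of 0.74 to 2.25, and 1 fell. These 29 calls are 0.0785% of the 36922 genes tested, with 0.0758% higher and 0.00271% lower (limma with the line as covariate, adjusted p under 0.05). At an unadjusted p under 0.05 there were 2232 higher genes (6.05%) and 455 lower genes (1.23%), where 1846 in all would be at that level under no difference. The median log2 change over all genes was 0.04. Changes are differences of log2(TPM + 1), and for genes of low abundance they come out too small. In bulk seedlings, more cells of a type and more RNA per cell cannot be told apart.

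Among the called genes Niben101Ctg07683g00002 had the largest rise; some genes with larger changes did not pass the test. In line 1 it held 5.47 and 11.6 TPM after XEG1, against 2.19 and 0.731 TPM in mock, and in line 2 it held 19.2 and 16.6 TPM after XEG1, against 2.55 and 1.91 TPM in mock. Every XEG1 library was above every mock library, and the XEG1 libraries of line 2 were above those of line 1. The log2 change over both lines was 2.25 (SE 0.27, 95% interval 1.63 to 2.87, limma adjusted p 0.0474). This call was close to the threshold. It held in 2 of 9 other settings and in 2 of the 8 fits that left out a library, with adjusted p-values from 0.0023 to 0.261 over these 17 fits.

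Niben101Scf03861g00008 held 9.39 and 11.6 TPM after XEG1 in line 1, against 2.65 and 1.94 TPM in mock. In line 2 it held 16.4 and 18.05 TPM after XEG1, against 3.85 and 2.61 TPM in mock. The groups did not overlap in either line, and the log2 change over both lines was 1.96 (SE 0.13, 95% interval 1.67 to 2.26, limma adjusted p 0.00136). Among the 29 calls, this gene and its neighbour by number, Niben101Scf03861g00009, were the only ones called in all 9 other settings and all 8 fits without a library, with adjusted p-values of at most 0.0318. The neighbour, named after its values were seen, held between 0.897 and 1.21 times the TPM of the first in each of the 8 libraries. The sources used here do not say how reads were shared between similar gene copies, so the values of this pair are uncertain and may not be independent.

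The fallen gene was Niben101Scf15393g00005. It held 2.59 and 1.16 TPM after XEG1 in line 1, against 12.8 and 8.66 TPM in mock, and 1.997 and 2.86 TPM after XEG1 in line 2, against 6.96 and 8.91 TPM in mock. All 4 XEG1 libraries lay below all 4 mock libraries. Its log2 change over both lines was -1.72 (SE 0.22, 95% interval -2.22 to -1.22, limma adjusted p 0.0474). The call was made in 3 of 9 other settings and in 4 of 8 fits without a library. The gene was also lower after XEG1 in the receptor knockout, with 1.37 and 1.30 TPM, against 6.09 and 4.86 TPM in mock. Its change in both lines differed from the one in rxeg1 by -0.25 (95% interval -1.03 to 0.52), which did not pass the test.

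**Figure D2:**
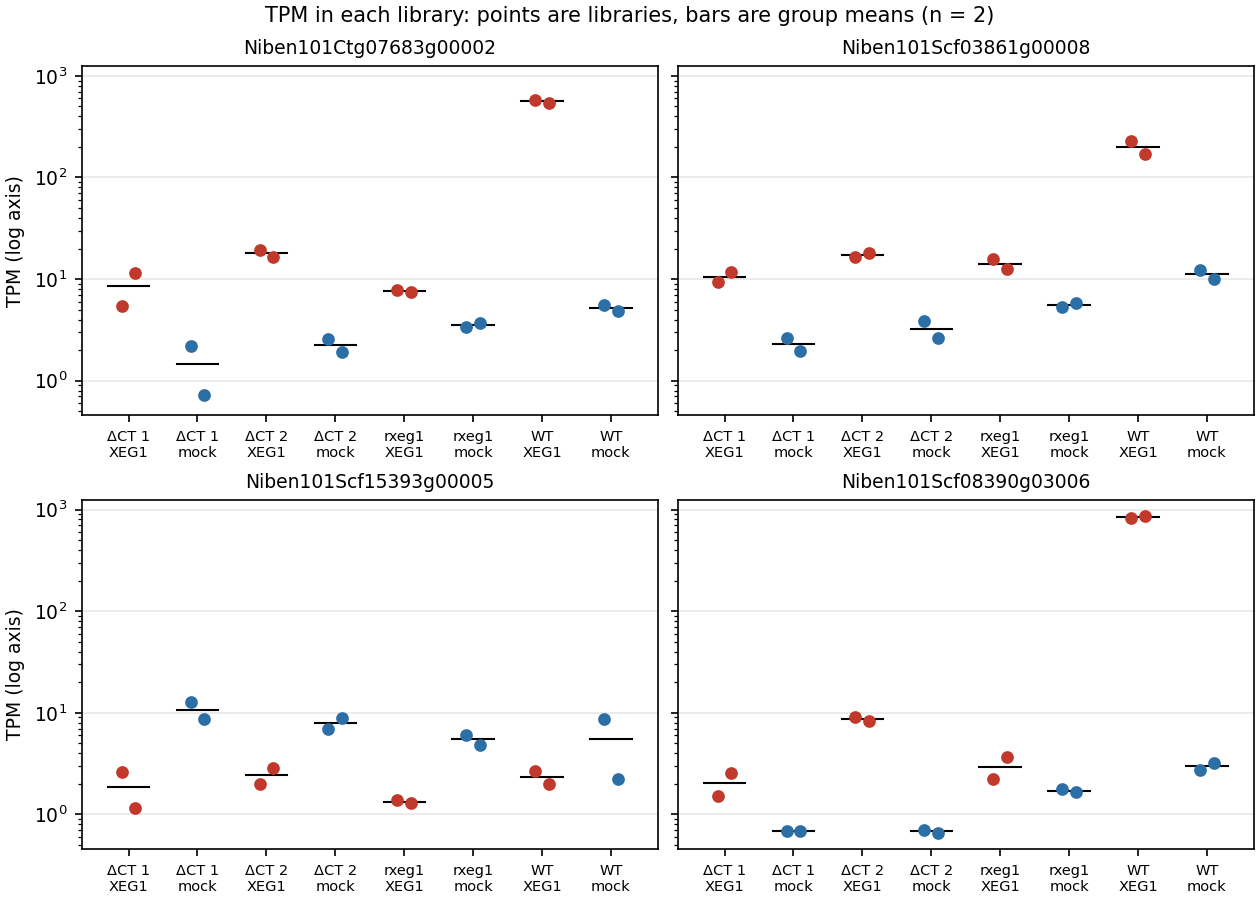
TPM on a log axis in every library of the ΔCT lines, rxeg1 and wild type (WT), for the called genes with the largest rises in both lines (top), the fallen gene (bottom left) and the called gene with the largest rise in line 2 (bottom right). Points are libraries and bars are means of 2; the XEG1 libraries of each ΔCT line do not overlap its mock libraries in any panel, and wild-type XEG1 libraries reach 833 to 868 TPM for Niben101Scf08390g03006.

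The risen genes were mostly of low abundance. Of the 28, 1 had a mean below 1 TPM in the mock libraries, 22 a mean of 1 to under 10 TPM and 5 a higher one. Their means after XEG1 ranged from 2.43 to 104 TPM. For 20 of them the log2 change was 1 or more. In all 28 the XEG1 libraries of each line lay above the mock libraries of the same line, a pattern that 6.54% of all tested genes shared, while 1.22% lay below mock in both lines and 2.33% lay above it in 1 line and below it in the other. This separation follows in part from the test that chose the genes. Only 1 scaffold, as given in the identifiers, held more than 1 risen gene: Niben101Scf03861 held 3 of them among its 10 tested genes. The remaining 7 genes of this scaffold had log2 changes between -0.14 and 0.47.

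The number of calls depended on single libraries. Without mock replicate 2 of line 1, the library that stood apart, 135 genes were called, of which 52 were higher and 83 lower, and 26 of the 29 genes were called again. Without mock replicate 1 of line 1 there were 263 calls, 260 of them higher, and without XEG1 replicate 1 of line 1 there were 197, 194 of them higher; both contained all 29 genes. There were 7 calls without XEG1 replicate 2 of line 1. Each library of line 2 also mattered: 4 calls were left without either of its XEG1 libraries, 5 without its mock replicate 1 and 7 without its mock replicate 2. Of the 29 genes, 3 were called in every fit without a library. A fit of all 28 libraries called 72 genes, all higher, of which 13 were among the 29. Median-ratio scaling gave 5 genes, all higher and all among the 29.

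Next, each line was taken by itself. In line 1 limma called 0 genes (0% of those tested), with 925 at an unadjusted p under 0.05, of which 811 were higher and 114 lower. The 925 were fewer than the 1846 under no difference, so the lack of calls does not show a lack of change. The genes with the smallest p in line 1 were Niben101Scf03861g00008 and its neighbour, with log2 changes of 1.81 and 1.83 (both adjusted p 0.126), and, among lower genes, Niben101Scf15393g00005 with -2.05 (adjusted p 0.416) and Niben101Scf06042g03021 with -0.87 (adjusted p 0.838). In line 2 limma called 8 genes, all higher, which is 0.0217% of those tested, with 2159 at an unadjusted p under 0.05, of which 1623 were higher and 536 lower. Of these 8, 4 were among the 28 risen genes. Leaving out a library of either line changed both counts. Line 1 had 329 calls without its mock replicate 1, 13 without its mock replicate 2, 15 without its XEG1 replicate 1 and 1 without its XEG1 replicate 2. Line 2 had 156 calls without mock replicate 1 of line 1, 154 without mock replicate 2 of line 1, and 80 and 79 without XEG1 replicate 1 and 2 of line 1. Its counts were 5 and 4 without its own mock and XEG1 replicate 1, and 4 with median-ratio scaling. None of the 8 genes was called without either of the XEG1 libraries of line 2.

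Among the 8 calls of line 2, Niben101Scf08390g03006 had the largest rise. It held 9.14 and 8.23 TPM after XEG1 in line 2, against 0.708 and 0.655 TPM in mock, a log2 change of 2.52 (SE 0.19, limma adjusted p 0.00607). In line 1 it held 1.53 and 2.55 TPM after XEG1, against 0.690 and 0.681 TPM in mock, a log2 change of 0.83 that did not pass the test. All 4 mock libraries lay between 0.655 and 0.708 TPM, and both XEG1 libraries of line 2 were above those of line 1. Niben101Scf00712g02011, which was second, held 29.1 and 27.4 TPM after XEG1 in line 2, against 3.67 and 4.59 TPM in mock (log2 change 2.52, SE 0.20, limma adjusted p 0.00739). In line 1 it held 11.1 and 16.5 TPM after XEG1, against 5.38 and 3.86 TPM in mock (log2 change 1.39, limma adjusted p 0.416). Both genes missed the threshold in line 2 without either of its XEG1 libraries and in the fit of all 28 libraries, and the second also without mock replicate 1 of line 2.

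The difference between the lines was tested itself. Limma called 0 genes (0%) whose change differed between line 2 and line 1, with 619 at an unadjusted p under 0.05, of which 302 were more positive in line 2 and 317 less. With 1846 at that level under no difference, the lack of calls does not show that the lines were alike. Niben101Scf08390g03006 had the smallest p among genes with a more positive change in line 2, and it missed the threshold. The other gene with a more positive change, Niben101Scf03252g03002, held 36.6 and 40.3 TPM after XEG1 in line 2, against 12.05 and 12.8 TPM in mock, and 13.8 and 10.96 TPM after XEG1 in line 1, against 31.1 and 16.6 TPM in mock. It also held 39.1 TPM in XEG1 replicate 1 and 14.04 TPM in XEG1 replicate 2 of rxeg1, so it differed as much between replicates there. Of the genes with a less positive change in line 2, Niben101Scf01890g03014 is listed at 0 in both its XEG1 libraries, against 2.35 and 1.99 TPM in mock, and Niben101Scf08231g00011 is listed at 0 in 1 of them, so no fold is given. Of the 28 risen genes, 22 had the larger log2 change in line 2, with a median difference of 0.30 (range -0.14 to 0.85), against -0.02 over all genes, and none passed the test. The median standard error of a difference between lines was 0.23 log2 units over all genes. Without mock replicate 1 of line 1, where the apart-standing library is the only mock of its line, 273 genes were called, 266 of them with a less positive change in line 2. The other fits without a library called 1 to 4 genes.

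**Figure D3:**
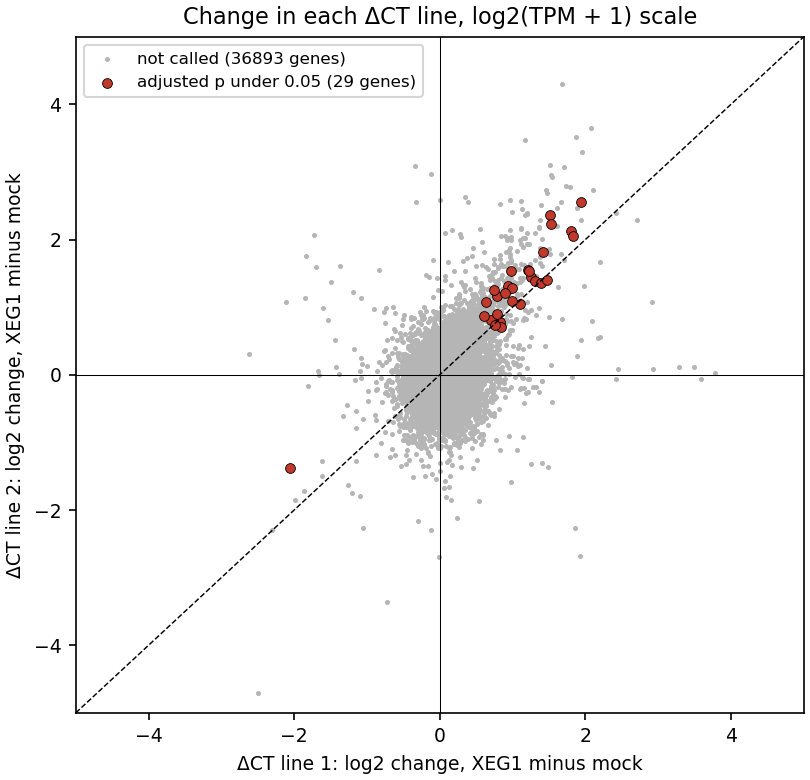
Log2 change after XEG1 in ΔCT line 1 (horizontal) and ΔCT line 2 (vertical) for the 36922 tested genes; called genes are red and the dashed line marks equal change. The 28 risen genes lie in the upper right and 22 of them lie above the dashed line.

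Across the 36922 genes, the log2 changes of line 1 and line 2, which share no library, correlated with a Pearson r of 0.361 and a Spearman rho of 0.238. These are descriptions, since genes are not independent of each other. The replicate deviations of the mock libraries of line 1 and line 2 correlated at 0.299, so the changes of the lines may share part of their error. How far this moved r and rho was not tested.

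The lines lack the endogenous receptor, so their response was set against the one of the rxeg1 knockout. Limma called 2 genes (0.00542%) whose XEG1 effect in both lines differed from that in rxeg1, and 380 at an unadjusted p under 0.05. That count was below the 1846 under no difference, so few calls do not show that the effects were alike. Neither of the 2 was called in the ΔCT lines. Niben101Scf10440g00024 held 41.7 to 51.05 TPM after XEG1 and 40.4 to 47.7 TPM in mock in the lines, and is listed at 0 in both XEG1 libraries of rxeg1, against 54.6 and 54.9 TPM in its mock libraries. Niben101Scf00033g07004 held 8.88 to 12.0 TPM after XEG1 and 8.05 to 10.9 TPM in mock in the lines, and is also listed at 0 in both XEG1 libraries of rxeg1. A listed 0 can be a failed estimate: the first gene is at 0 in 1 XEG1 library of wild type whose replicate held 51.6 TPM. No fold is given for them. The count was 6 without XEG1 replicate 1 of rxeg1 and 4 without each library of line 1.

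Among the 28 risen genes 0 differed from rxeg1 past the threshold. The log2 changes of most were nevertheless larger in the lines. The difference was above 0 for 26 of 28, with a median of 0.76, against 0.02 over all genes. An unadjusted p under 0.05 with a larger rise in the lines was reached by 14 of the 28 and by 0.859% of all genes. A replicate block within genotype was added after the data were seen. With it 20 of the 28 reached that level and 0 passed the threshold, while 1028 of all genes were at that level in either direction, against 380. The median standard error was then 0.19 log2 units, against 0.28 without the block. The genes were chosen for their rise in the same ΔCT libraries, which favours a larger rise there, so these counts are a description. At Niben101Ctg07683g00002 the difference from rxeg1 was 1.33 (95% interval 0.41 to 2.24) and at Niben101Scf03861g00008 it was 0.77 (95% interval 0.18 to 1.36), each interval before adjustment for the number of genes. Mean mock levels of both genes were lower in the lines than in rxeg1. For the first they were 1.46 and 2.23 TPM in lines 1 and 2, against 3.55 TPM, and for the second 2.29 and 3.23 TPM, against 5.58 TPM. After XEG1 the first averaged 8.53 and 17.9 TPM, against 7.61 TPM in rxeg1. The second averaged 10.5 and 17.2 TPM, against 14.1 TPM. These differences in level were not tested.

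Most of the 28 genes also had positive log2 changes in the other genotypes, the receptor knockout included. In rxeg1, 26 of the 28 had a positive log2 change, with a median of 0.58 against 0.01 over all genes. For Niben101Scf03861g00008 this was 15.7 and 12.5 TPM after XEG1, against 5.32 and 5.84 TPM in mock. In the sobir1/sobir1-like knockout 27 of the 28 were positive, with a median of 0.77. The medians were 0.91 in the line Δ90-95/Q786AK791A and 0.66 in the line Δ90-95/Δ786-792, where all 28 were positive. Limma called 0 genes in each of these 4 genotypes (0%), with 240 genes in rxeg1, 529 in sobir1/sobir1-like, 1110 in Δ90-95/Q786AK791A and 637 in Δ90-95/Δ786-792 at an unadjusted p under 0.05. All 4 counts were below the 1846 that would be at that level under no difference, so the lack of calls does not show a lack of change. Of the 28 genes, 10 were higher at that level in rxeg1, against 0.366% of all genes, and 12 in sobir1/sobir1-like, against 0.902%. There were 18 in Δ90-95/Q786AK791A, against 1.92%, and 9 in Δ90-95/Δ786-792, against 1.19%. In the fit of 12 libraries, 3 genes were called in rxeg1, all lower and none of them among the 28. None of these libraries took part in choosing the 28 genes. The replicates of rxeg1 were farther apart than those of the lines, with an SD of 0.251 after XEG1 and 0.248 in mock. Deviations of its XEG1 and mock libraries of the same replicate number correlated at 0.730, and a fit without a replicate block counts this shared part as spread.

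**Figure D4:**
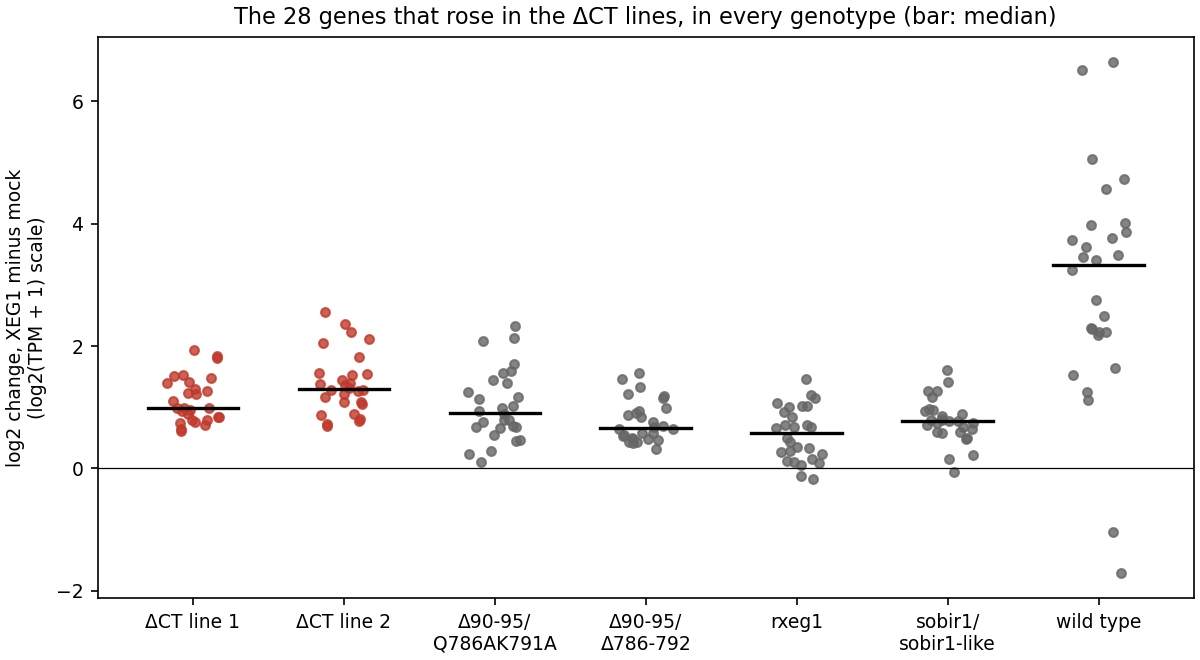
Log2 change after XEG1 of the 28 genes that rose in the ΔCT lines, by genotype; each point is a gene and bars are medians. The ΔCT lines are red and were used to choose the genes. Medians are 0.99 and 1.30 in ΔCT lines 1 and 2, 0.91, 0.66, 0.58 and 0.77 in the next 4 genotypes, and 3.33 in wild type.

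Against wild type, the response of both lines was far smaller. Limma called 17613 genes (47.7%) whose XEG1 effect differed, 14099 (38.2%) with a more positive and 3514 (9.52%) with a less positive change in the lines. In wild type itself 15741 genes were called (42.6%). More positive differences were 80.0% of these calls, and 42.4% of 12675 calls after median-ratio scaling, which moved the median difference of all genes to -0.03 from 0.42. Niben101Scf02936g04013 had the most negative difference of the calls. It held 1.09 and 1.40 TPM after XEG1 in line 1, against 1.01 and 0.677 TPM in mock, and 5.36 and 3.01 TPM after XEG1 in line 2, against 1.61 and 2.05 TPM in mock. In wild type it held 468 and 402 TPM after XEG1, against 2.67 and 1.38 TPM in mock, and the difference in log2 change was -6.64 (SE 0.30, limma adjusted p 2.46e-08). Next was Niben101Scf08390g03006, with a difference of -6.07 (SE 0.21, limma adjusted p 6.77e-09). At the other end, Niben101Scf24053g00003, a gene repressed in wild type, held 109 and 108 TPM after XEG1 in line 1, against 167 and 91.3 TPM in mock, and 136 and 127 TPM after XEG1 in line 2, against 183 and 139 TPM in mock. In wild type it held 3.87 and 1.66 TPM after XEG1, against 231 and 189 TPM in mock, a difference of 5.64 (SE 0.38, limma adjusted p 2.90e-06). The gene with the most positive difference, Niben101Scf05468g01003, had zeros in 5 of the 8 ΔCT libraries and in both wild-type XEG1 libraries, and no fold is given for it.

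Of the 28 risen genes, 26 also rose in wild type, where limma called 10.3% of all genes higher, and 2 fell, where it called 32.3% lower. For the 26, the log2 change in the lines was 0.346 times that in wild type at the median, with a range of 0.268 to 1.07 times. These genes were chosen for their rise in the lines, which favours a larger ratio. The 175 genes with a wild-type rise of at least 4 had median changes of 0.69 in the lines and 4.68 in wild type. The 959 genes with a wild-type rise of 2 to 4 had 0.28 and 2.65. Those 2 groups were chosen by wild type, which favours a larger change there. The response of 22 of the 28 was called smaller than in wild type. The 2 genes that fell in wild type were picked for description after their values were seen, and their rise in the lines was called in few alternatives. Niben101Scf02413g03022 was called in 3 of 9 other settings and 3 of 8 fits without a library, and Niben101Ctg13782g00003 in 1 of 9 and 3 of 8. Niben101Scf02413g03022 held 10.1 and 14.3 TPM after XEG1 in line 1, against 6.65 and 4.85 TPM in mock, and 28.4 and 21.1 TPM after XEG1 in line 2, against 9.39 and 9.65 TPM in mock. In wild type it held 8.17 and 5.58 TPM after XEG1, against 29.6 and 19.97 TPM in mock, so the directions were opposite. The difference in log2 change was 2.82 (SE 0.30, limma adjusted p 1.85e-05). Niben101Ctg13782g00003 rose by 0.76 in the lines and fell by 1.04 in wild type on the log2 scale, a difference of 1.80 (SE 0.19, limma adjusted p 1.66e-05). Its mock levels were 29.9 ± 6.52 TPM in line 1, 39.8 ± 0.0862 TPM in line 2 and 71.5 ± 4.25 TPM in wild type (SD, n = 2). With median-ratio scaling the fall in wild type was 1.25 for the first gene (adjusted p 0.0134) and 0.54 for the second, which then was not called (adjusted p 0.191).

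Finally, the genes that XEG1 raised in wild type were followed in the lines. The wild-type change behind these lists came from the 20 libraries of other genotypes. The lists were drawn from the 36922 tested genes, and their abundance in the 8 ΔCT libraries, though not their change there, thus took part in choosing them. The change in the lines grew with the size of the rise in wild type. The median log2 change over both lines was 0.09 for 1226 genes with a wild-type rise below 1, 0.14 for 1444 genes with a rise of 1 to 2, 0.28 for 959 genes with a rise of 2 to 4, and 0.69 for 175 genes with a rise of at least 4, against 0.04 over all tested genes. This growth was not particular to the lines. From the first group to the last, medians grew from 0.06 to 0.22 in rxeg1 and from 0.08 to 0.40 in sobir1/sobir1-like. They grew from 0.10 to 0.82 in Δ90-95/Q786AK791A and from 0.09 to 0.36 in Δ90-95/Δ786-792. In the group of 175, 170 genes (97.1%) had a positive change over both lines, against 63.0% of all tested genes. There 130 genes (74.3%) were higher at an unadjusted p under 0.05, against 6.05% of all tested genes, and 6 were called, where 0.0758% of all tested genes were called higher. Of the same 175 genes, 79.4% had a positive change in rxeg1, 88.6% in sobir1/sobir1-like, 93.7% in Δ90-95/Q786AK791A and 88.0% in Δ90-95/Δ786-792. At an unadjusted p under 0.05, with 2 libraries per treatment, 5.14%, 12.0%, 55.4% and 12.6% were higher there, in the same order. In line 1 alone it was 45.1%, and in line 2 alone 70.9%. The shares of the lines and of the other genotypes came from separate fits and cannot be compared directly. The median standard error over all genes was 0.16 log2 units in each line and 0.25 in each of the other genotypes. The group of 959 held 16 of the called genes and that of 1444 held 4. Over all 3804 genes that rose in wild type the median was 0.15, and 0.06 with median-ratio scaling, which puts 7098 genes in this list and moves the median of all genes to 0.00011. For the largest rises the median was 0.54 with this scaling and 0.68 without mock replicate 2 of line 1.

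In the group of 175 the median was larger in line 2 than in line 1, with no gene's difference past the threshold. The median log2 change was 0.47 in line 1 (quartiles 0.25 and 0.99) and 0.93 in line 2 (quartiles 0.44 and 1.70), against 0.22 in rxeg1 (quartiles 0.05 and 0.45). It was 0.82 in Δ90-95/Q786AK791A, above line 1, 0.36 in Δ90-95/Δ786-792 and 0.40 in sobir1/sobir1-like. The medians for the group of 959 were 0.25 in line 1 and 0.34 in line 2, against 0.11 in rxeg1. The value of line 1 depended on its mock replicate 2, the library that stood apart. The mean log2 level of these 959 genes in line 1 was 3.00 and 3.14 after XEG1. It was 2.96 in mock replicate 1 and 2.56 in mock replicate 2. The summed level of the 175 genes was 0.183% and 0.233% of all TPM in XEG1 libraries of line 1, against 0.162% and 0.114% in its mock libraries. In line 2 it was 0.363% and 0.336% after XEG1, against 0.161% and 0.146% in mock. In rxeg1 it was 0.231% and 0.239% after XEG1, against 0.185% and 0.204% in mock, and in wild type 8.18% and 8.88% after XEG1, against 0.259% and 0.232% in mock. XEG1 libraries lay above mock libraries within each of these genotypes. The XEG1 libraries of line 1 did not exceed those of rxeg1 throughout, while its mock libraries and those of line 2 lay below every rxeg1 library.

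**Figure D5:**
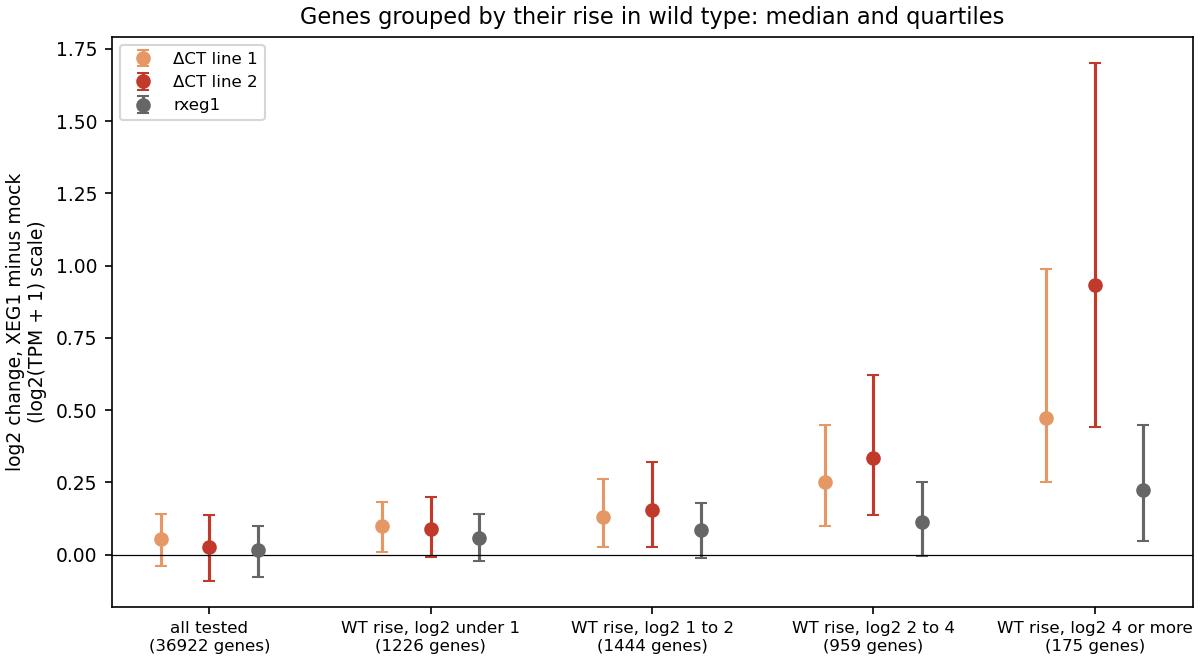
Median log2 change after XEG1, with bars from the lower to the upper quartile over genes, in ΔCT line 1, ΔCT line 2 and rxeg1, for all tested genes and for genes grouped by the size of their rise in wild type. In the group of 175 genes the medians are 0.47, 0.93 and 0.22 in the order of the legend.

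Genes that fell in wild type changed little at the median in the lines. In wild type the 3804 risen genes held 7.98% of all TPM in each mock library, against 33.8% and 36.0% after XEG1. Totals of TPM are equal, so a larger share of some genes lowers the values of others. The median log2 change over all genes in wild type was -0.39. How many genes are in the fallen list for that reason was not tested. The 11937 fallen genes had a median log2 change of 0.01 over both lines, which was -0.05 with median-ratio scaling and -0.017 without mock replicate 2 of line 1. It was 0.04 in line 1 and -0.01 in line 2. Of them, 2.72% were higher and 2.08% lower at an unadjusted p under 0.05, against 6.05% and 1.23% of all tested genes. Over all 36922 genes the log2 changes in wild type correlated with those over both lines with a Pearson r of 0.427 and a Spearman rho of 0.268, as a description; r was 0.245 for line 1 and 0.435 for line 2.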

How the data were processed

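RNA of 12-day-old seedlings was made into libraries with version 3.0 of an MGIEasy kit, per the labels' protocols. The submitters' processing notes name HISAT2 2.0.4, a spliced aligner; build, annotation and the step to TPM: not given in the sources used here. The authors deposited TPM, 1 list per library; depth is unknown. Groups followed the titles. The test was limma's moderated test on log2(TPM + 1), with the trend and robust options, for genes averaging 1 TPM or more across the 8 ΔCT libraries, with line and XEG1 as terms and 5 residual degrees of freedom. Each line's change and their difference came from 4 group means of the same libraries, differences from rxeg1 and wild type from 12 libraries each, and other genotypes' changes from the 20 remaining libraries. Benjamini-Hochberg adjustment ran over all 36922 genes. Named genes were at most 2 each way per comparison, by largest change among called genes with non-overlapping libraries, or by smallest p where none was called; a selection is printed. Members and lists were chosen with earlier results of these data known. Alternatives were a pseudocount of 0.1, other filters, median-ratio scaling, replicate blocks, no line term, all 28 libraries, no trend, a log2 threshold of 1 and leaving out each library; counts of shared calls, the scaled wild-type change and a replicate block within genotype were added after the data were seen. The test was also run on simulated data with independent errors. Those data carry no deviations shared between libraries, so they do not show how stable the calls are, and no result here rests on them. R 4.3.3, limma 3.58.1, statmod 1.5.0, data.table (1.17.8) and matplotlib 3.10.9 were used.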

Additional observations from a re-analysis of the deposited data

Results flagged for a closer look

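The XEG1 effect in both ΔCT lines differed from that in wild type for 17613 genes, by limma's test of the difference. It differed from that in rxeg1 for 2 genes, both listed at 0 in the XEG1 libraries of rxeg1 and not called in the lines. For 2 genes the direction was opposite: the log2 effect in the lines minus that in wild type was 2.82 at Niben101Scf02413g03022 and 1.80 at Niben101Ctg13782g00003. The rise in the lines was called in 3 of 9 other settings for the first gene and in 1 of 9 for the second, and for each in 3 of 8 fits without a library. Both are lower in mock-treated ΔCT lines than in mock-treated wild type, at 5.75 ± 1.27 and 9.52 ± 0.186 TPM in lines 1 and 2, against 24.8 ± 6.80 TPM in wild type, for the first of them (SD, n = 2). That difference in mock levels was not tested.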

How the results depend on the processing

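The count of 29 calls in both lines was 18 with a pseudocount of 0.1, 18 with a mean of at least 5 TPM, 8 with no filter, 5 with median-ratio scaling, 11 with no line term, 11 without trend and robust shrinkage, and 72 with all 28 libraries; the cause was not tested. A log2 threshold of 1 left 21. Line 2 had 4 calls with median-ratio scaling, and the difference between the lines 2 with no filter. Replicate numbers do not pair the samples of the ΔCT lines: deviations of XEG1 and mock libraries of the same number correlated at -0.0129 in line 1 and -0.0027 in line 2, and those of both lines' mock libraries at 0.299. In rxeg1 they correlated at 0.730, but with 2 numbers and no shared source in the labels these are not taken as pairs. A replicate block gave 6 calls in both lines and 4 in line 2, and a replicate block within line gave 8 in both lines. A replicate block within genotype, added after the data were seen, left 2 calls against rxeg1, with 1028 genes at an unadjusted p under 0.05 against 380. It gave 5 calls in rxeg1 against 3 in the same 12 libraries, with 790 genes at that level against 236. Of the 28 risen genes 0 were called in either comparison. At an unadjusted p under 0.05, 20 of the 28 were higher against rxeg1 with the block and 14 without it. In rxeg1 itself 16 were higher with the block and 14 without it. With 1 library left out, calls ranged from 4 to 263 in both lines, 0 to 329 in line 1, 4 to 156 in line 2, 1 to 273 for the line difference, 2 to 6 against rxeg1 and 13093 to 18350 against wild type; a library left alone in its group was assumed to vary like the others. The median change of wild-type risen genes was 0.17 with a pseudocount of 0.1 and 0.0603 with median-ratio scaling, against 0.15, and ranged from 0.11 to 0.21 with 1 library left out. That of fallen genes was -0.0498 with median-ratio scaling and ranged from -0.017 to 0.043. Of 221 values recomputed for named genes, 167 kept their side of the threshold, 54 no longer passed it and none reversed. All 54 belonged to genes called in both lines or in line 2. For the named genes called in both lines, more values no longer passed than kept their side. The differences from rxeg1 and from wild type all kept theirs.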
